A study of Mus musculus with 45 samples.

Results

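The 8 genes described here encode the nuclear receptor PPARα (Ppara) and 7 enzymes of fatty acid oxidation (Cpt1a, Cpt2, Acadm, Acadl, Acadvl, Ehhadh and Hadha), taken by symbol from the 55401 genes of the count tables. All 8 passed the low-count filter in both sexes and were measured in all 45 mice. They were picked by symbol with earlier results of these data known, and each gene was followed across genotype and sex. Mice were compared on counts, and genes with each other on the deposited TPM, which divide counts by the annotated exon length of the gene.

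Fatty acids enter oxidation as acyl-CoA esters. Cpt1a, on the outer mitochondrial membrane, joins the acyl group to carnitine, and Cpt2, on the inner membrane, returns it to CoA inside the matrix. The acyl-CoA dehydrogenases Acadvl, Acadl and Acadm then take the first step of each cycle on very long, long and medium chains, and Hadha, the alpha subunit of the trifunctional protein, carries the next steps on long chains. Ehhadh is the bifunctional enzyme of the peroxisomal pathway. PPARα, a ligand-activated transcription factor, is known to drive many of these genes in liver and in the proximal tubule, the nephron segment that relies on fatty acids for much of its ATP.

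The study profiled ribosome-bound mRNA of kidney tubule cells by TRAP RNASeq, in which an EGFP-tagged ribosomal protein is pulled down from the cells that have expressed it. Every mouse, the controls included, was hemizygous for R26Rpl10a, Pax8rtTA and TetOCre and received doxycycline from P28 to P42, and kidneys were taken at P49, 7 weeks of age. Noncystic mice carried Pkd1fl/+ (8 males and 7 females), Pkd1KO mice Pkd1fl/fl (7 males and 8 females), and Pkd1KO+ciliaKO mice Pkd1fl/fl and Kif3afl/fl (9 males and 6 females). The comparisons ask which translated mRNAs differ after loss of Pkd1 before cysts appear, and which of these differences are seen when cilia are removed as well. The noncystic mice were thus heterozygous for the Pkd1 allele and not wild type. Recombination was driven by Pax8rtTA in tubule cells of several segments, so a bulk pulldown cannot tell fewer cells of a segment from less RNA per cell, and this holds for every value below.

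Libraries held 80874556 to 132958186 counts. The strains had been backcrossed toward C57BL/6J. Kif3a, the deleted ciliary motor gene, checked the labels: it stood at 4.90 to 7.45 CPM (counts scaled to library size with TMM factors) in Pkd1KO+ciliaKO males and at 13.8 to 29.2 CPM in the other males. Among females 2 libraries went against their labels, the library labelled noncystic female replicate 5 at 6.69 CPM, where its group was otherwise at 23.2 to 25.3 CPM, and the library labelled Pkd1KO+ciliaKO female replicate 6 at 20.7 CPM, where its group was otherwise at 6.56 to 8.47 CPM. In addition 4 male libraries (noncystic male replicate 3, Pkd1KO male replicate 4, and Pkd1KO+ciliaKO male replicates 6 and 8) lay toward the females: the mean log2 CPM of genes higher in noncystic males minus that of genes higher in noncystic females was 1.67 to 2.09 in these 4, 2.22 to 2.91 in the other 20 males and 1.32 to 1.59 in the 21 females. Counts of Pkd1, whose deletion removes only part of the gene, had a log2 fold change of -0.45 in Pkd1KO against noncystic males (edgeR adjusted p = 0.0991) and -0.22 in females (adjusted p = 0.418). Where leaving out these 6 libraries changed a call of the 8 genes, or turned or moved by over 1.5 times a log2 fold change given below, the value without them stands beside it. Proximal tubule markers were present in every group, with a summed level of 5847 to 13587 CPM over 10 genes, and no marker of the 10 was at 0. Markers of adipocytes, which also express these enzymes, summed to 1.54 to 31.3 CPM over 5 genes, and Lep was under 1 CPM in every group.

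The genes lie on 8 chromosomes (GRCm38): Ppara at 15:85734983-85802819 (+), Cpt1a at 19:3322334-3385733 (+), Cpt2 at 4:107903981-107923610 (-), Acadm at 3:153922357-153944632 (-), Acadl at 1:66830839-66863277 (-), Acadvl at 11:70010183-70015411 (-), Ehhadh at 16:21761287-21787807 (-) and Hadha at 5:30118304-30155162 (-). Acadvl shares 1151 of its 2686 exon bases with Dvl2 on the opposite strand, and since strand-aware counting is not stated its values are uncertain. Hadha shares 75 of its 8730 exon bases with Garem2, which had a median count of 2. RefSeq gives 1 promoter window of 300 bases for each of the 8 genes (GRCm38.p6, 250 bases before to 50 after the start site). The windows of Cpt1a, Cpt2 and Acadm are shown because the genotype differences below concern these genes, with the receptor hexamer AGGTCA and the GC box GGGCGG, on either strand, in capitals.
Cpt1a, chr19:3323051-3323350 (+): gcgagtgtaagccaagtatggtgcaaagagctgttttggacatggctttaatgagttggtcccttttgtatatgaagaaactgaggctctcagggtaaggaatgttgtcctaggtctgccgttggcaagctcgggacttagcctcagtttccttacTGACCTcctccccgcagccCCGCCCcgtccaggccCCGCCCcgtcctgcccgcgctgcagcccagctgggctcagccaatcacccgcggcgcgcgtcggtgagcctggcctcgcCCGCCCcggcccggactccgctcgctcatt
Cpt2, chr4:107923540-107923839 (-): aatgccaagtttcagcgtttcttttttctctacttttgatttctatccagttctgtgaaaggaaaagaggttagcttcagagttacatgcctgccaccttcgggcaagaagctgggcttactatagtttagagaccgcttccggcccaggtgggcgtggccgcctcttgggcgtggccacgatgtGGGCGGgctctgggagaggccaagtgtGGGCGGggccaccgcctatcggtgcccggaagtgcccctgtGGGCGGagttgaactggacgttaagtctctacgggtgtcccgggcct
Acadm, chr3:153944594-153944893 (-): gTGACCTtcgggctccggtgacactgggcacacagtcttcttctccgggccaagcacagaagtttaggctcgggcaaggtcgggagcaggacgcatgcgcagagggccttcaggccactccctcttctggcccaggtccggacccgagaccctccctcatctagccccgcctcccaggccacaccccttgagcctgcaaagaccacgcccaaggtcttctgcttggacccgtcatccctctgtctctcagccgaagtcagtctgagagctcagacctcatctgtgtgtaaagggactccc
The hexamer AGGTCA was in the windows of Acadm, Acadvl and Cpt1a, 3 of 8, and in 16.3% of the 32851 windows of all genes. GGGCGG was in 6 of 8, all but Acadm and Acadvl, against 35.7% of all windows, while CCAAT was in 2 (Cpt1a and Ehhadh) against 37.4%. The direct repeat AGGTCANAGGTCA, the element that PPARα binds with RXR, was in none of the 8 windows, in either orientation, and in 0.0396% of all windows. These are matches of letters within 300 bases only.

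Per unit of annotated exon length, the medium-chain dehydrogenase Acadm and the peroxisomal Ehhadh were the highest of the 8 genes in every group, and the receptor Ppara was the lowest (plot of TPM by gene and group). In noncystic males the deposited TPM was 1274 ± 280 for Acadm (SD, n = 8) and 1225 ± 208 for Ehhadh, and the ranges of these neighbours overlapped. Acadl followed at 720 ± 68.7, with a range that overlapped neither Ehhadh above it nor Cpt1a below it. Cpt1a at 281 ± 26.3, Cpt2 at 231 ± 47.9 and Acadvl at 211 ± 13.2 formed a run of overlapping neighbours. Hadha stood at 117 ± 19.7 and Ppara at 93.6 ± 10.7. These levels are divided over annotated exon lengths of 8730 bases for Hadha, 7642 for Cpt1a, 3836 for Ppara and 2005 for Acadl. The order of the genes therefore depends on the annotation. Noncystic females had the same first 4 genes, with Acadm at 1386 ± 185 (n = 7), Ehhadh at 914 ± 128, Acadl at 574 ± 40.2 and Cpt1a at 231 ± 42.4 TPM. In Pkd1KO+ciliaKO males and in Pkd1KO and Pkd1KO+ciliaKO females the ranges of Ehhadh and Acadl overlapped, while those of Acadl and Cpt1a overlapped in no group. The TPM of males and females were scaled in separate tables, and comparisons between the sexes below use the counts.

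**Figure D1:**
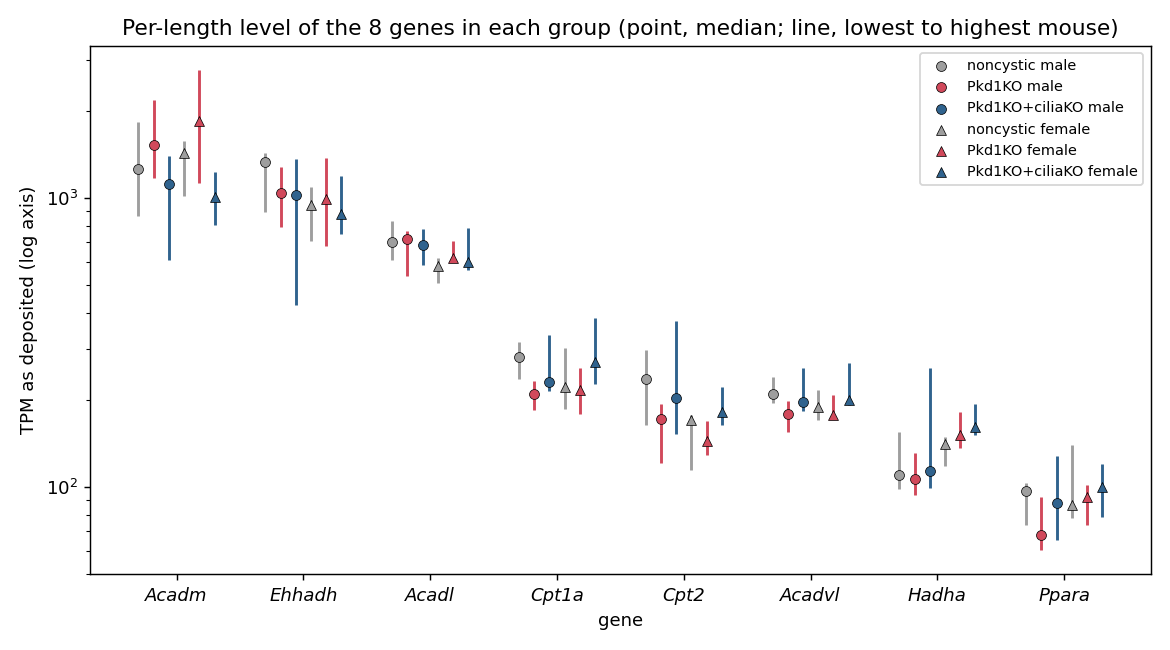
Deposited TPM (log axis) of each gene, with the median of each group as a point (circles for males, triangles for females) and a line from the lowest to the highest mouse. Acadm and Ehhadh are highest and Ppara lowest in all 6 groups, and Cpt1a, Cpt2, Acadvl and Hadha lie between, with group means of 110 to 282 TPM.

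Sex set the largest number of differences among the 8 genes. Of the 8, 5 enzymes were higher in noncystic males than in noncystic females (edgeR quasi-likelihood test with Benjamini-Hochberg adjustment, adjusted p at most 0.05) and none was lower. Across all genes 27.5% passed this test, 15.3% higher and 12.2% lower in males. The median log2 fold change of the 8 genes was 0.38, and that of all genes -0.01.

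Both carnitine palmitoyltransferases were higher in males. Cpt2 was at 130 to 236 CPM in noncystic males (median 197) and at 84.7 to 133 CPM in noncystic females (median 120), and all 8 males lay above the female median. Its level was 1.67-fold higher in males (log2 fold change 0.74, SE 0.130, adjusted p = 0.000427), the largest sex difference of the 8 genes. Cpt1a ranged from 600 to 839 CPM in males (median 735) and from 431 to 684 CPM in females (median 533), a 1.36-fold difference (log2 fold change 0.44, SE 0.110, adjusted p = 0.00645) with 8 of 8 males above the female median. For both genes the lowest males reached into the female range.

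Of the 3 acyl-CoA dehydrogenases, those of longer chains were higher in males and Acadm was not called. Acadl stood at 349 to 576 CPM in noncystic males (median 500) against 316 to 381 CPM in females (median 366), 1.40-fold higher (log2 fold change 0.48, SE 0.0899, adjusted p = 0.000704). Of the 8 males 7 exceeded the female median, and the lowest male, at 349 CPM, was replicate 3, whose profile lay toward the females. Acadvl, which opens the cycle on very long chains, was at 161 to 223 CPM in males and 136 to 187 CPM in females (log2 fold change 0.33, SE 0.0768, adjusted p = 0.00411), with the overlap with Dvl2 named above. Acadm gave 1134 to 2386 CPM in males and 1169 to 1973 CPM in females, with a log2 fold change of 0.03 (95% interval -0.25 to 0.31, edgeR adjusted p = 0.903), and 0.09 (adjusted p = 0.665) without noncystic male replicate 3 and the library labelled noncystic female replicate 5. The ranges of Acadm overlapped, and 1 male, replicate 4 at 2386 CPM, lay above the highest female.

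Peroxisomal Ehhadh was 1.5-fold higher in noncystic males (log2 fold change 0.58, SE 0.137, adjusted p = 0.00419), at 761 to 1487 CPM (median 1347) against 628 to 975 CPM in females (median 855). Hadha was at 287 to 390 CPM in males and 309 to 407 CPM in females (log2 fold change -0.06, 95% interval -0.22 to 0.11, adjusted p = 0.667). The receptor Ppara was at 94.2 to 137 CPM in males and 90 to 158 CPM in females (log2 fold change 0.15, 95% interval -0.07 to 0.37, adjusted p = 0.340). The 5 calls remained in all 6 alternative fits. Without noncystic male replicate 3 and the library labelled noncystic female replicate 5, Ehhadh had a log2 fold change of 0.69 (edgeR adjusted p = 0.000169). Male replicate 3 was set apart on genes called in this same comparison, so leaving it out was not an independent check of these calls. Of the 10 proximal tubule markers 3 (Slc34a1, Slc22a6 and Hnf4a) were also higher in males, with a list median of 0.08 and summed levels of 8771 to 13587 CPM in males and 8741 to 11811 CPM in females. Of 4 tubule injury markers 3 (Havcr1, Lcn2 and Vcam1) were lower, with a list median of -1.24 and sums of 13.7 to 68.5 CPM in males and 26.8 to 115 CPM in females. The part of either list in the sex differences was not tested. Male and female counts come from separate tables, and the study states that the samples went through RNASeq in 1 batch.

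**Figure D2:**
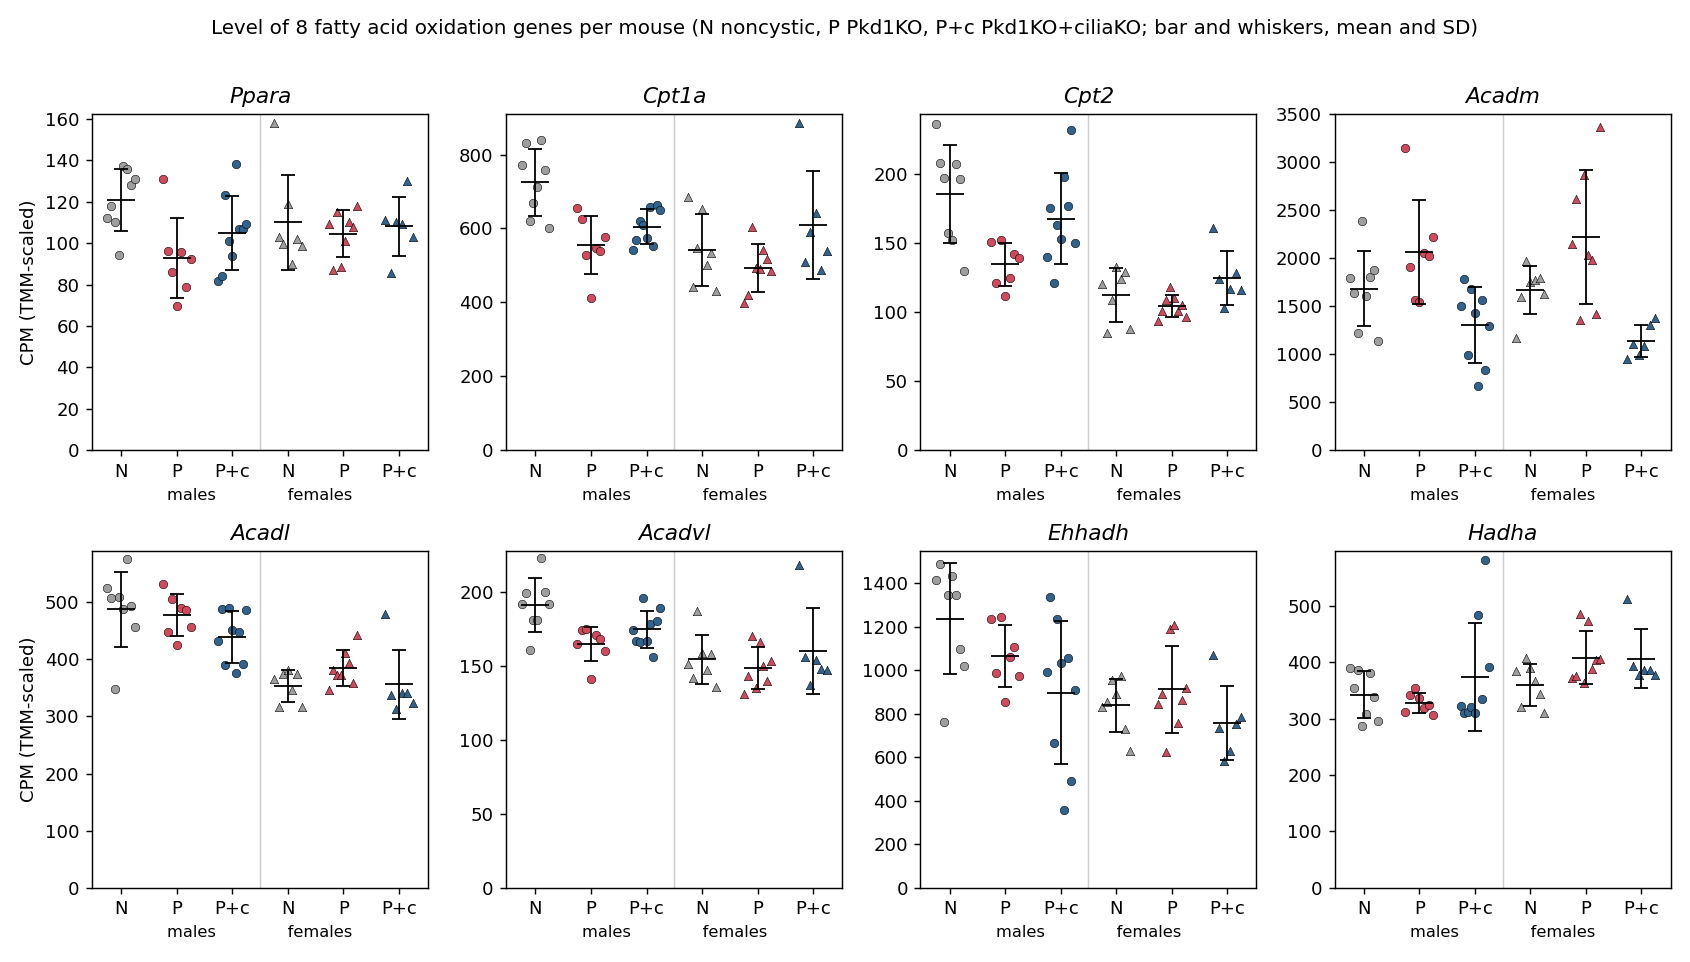
TMM-scaled CPM of each gene in each mouse (points; circles, males; triangles, females) with the mean and SD of each group; N, noncystic; P, Pkd1KO; P+c, Pkd1KO+ciliaKO. Cpt1a and Cpt2 lie lower in Pkd1KO than in noncystic males, and Acadm lies lower in Pkd1KO+ciliaKO than in Pkd1KO females, where 1353 CPM is the lowest Pkd1KO and 1372 CPM the highest Pkd1KO+ciliaKO mouse.

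Among the other genes of fatty acid oxidation, 32 of 75 were higher in noncystic males and 9 lower, with a median log2 fold change of 0.18. Over all genes 15.3% were higher and 12.2% lower. In the peroxisomal list 8 of 14 genes were higher in noncystic males and 1 was lower, with a median log2 fold change of 0.43. Crot, which makes carnitine esters of peroxisomal products, was at 458 to 883 CPM in males and 170 to 238 CPM in females (log2 fold change 1.79, SE 0.130, edgeR adjusted p = 4.74e-08), and the groups did not overlap. In the mitochondrial list 9 of 15 genes were higher in males and 1, the thiolase gene Acaa2, was lower, with a median of 0.35. Hadhb, the beta subunit that pairs with Hadha, had a log2 fold change of -0.08 (edgeR adjusted p = 0.516), close to the -0.06 of Hadha.

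The uptake and activation list went both ways, with 5 of 15 genes higher in males, 5 lower and a median of -0.18. Acsm3, a medium-chain acyl-CoA synthetase, had 41.8 to 1427 CPM in noncystic males and 2.80 to 4.77 CPM in females (log2 fold change 8.05, SE 0.597, edgeR adjusted p = 5.13e-08). Of 9 regulators 4 (Pparg, Rxra, Lpin1 and Prkaa2) were higher and none lower. Rxra encodes the partner with which PPARα binds DNA. The PPARα coactivator Ppargc1a had a log2 fold change of -0.15 (edgeR adjusted p = 0.136). The carnitine shuttle list without Cpt1a and Cpt2 gave 2 of 7 higher (Crat and Mlycd), and the list of other PPARα targets and ketogenesis 4 higher and 2 lower of 15, with a median of -0.03. Among 9 genes of fatty acid synthesis 2 were higher and 3 lower, Elovl6, an elongase, having the largest of these differences at -1.74 (SE 0.126, edgeR adjusted p = 4.70e-08). Without the 2 libraries named above, 11 of 15 mitochondrial and 8 of 14 peroxisomal genes were higher in males, where 2732 of all genes were higher in place of 2429. Lower in males were 7 of 15 uptake and activation genes in place of 5 and 1 of 9 regulators in place of 0. Over all genes 2495 were lower in place of 1924. This fit is no independent check either, as male replicate 3 was set apart on genes called in this comparison.

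**Figure D3:**
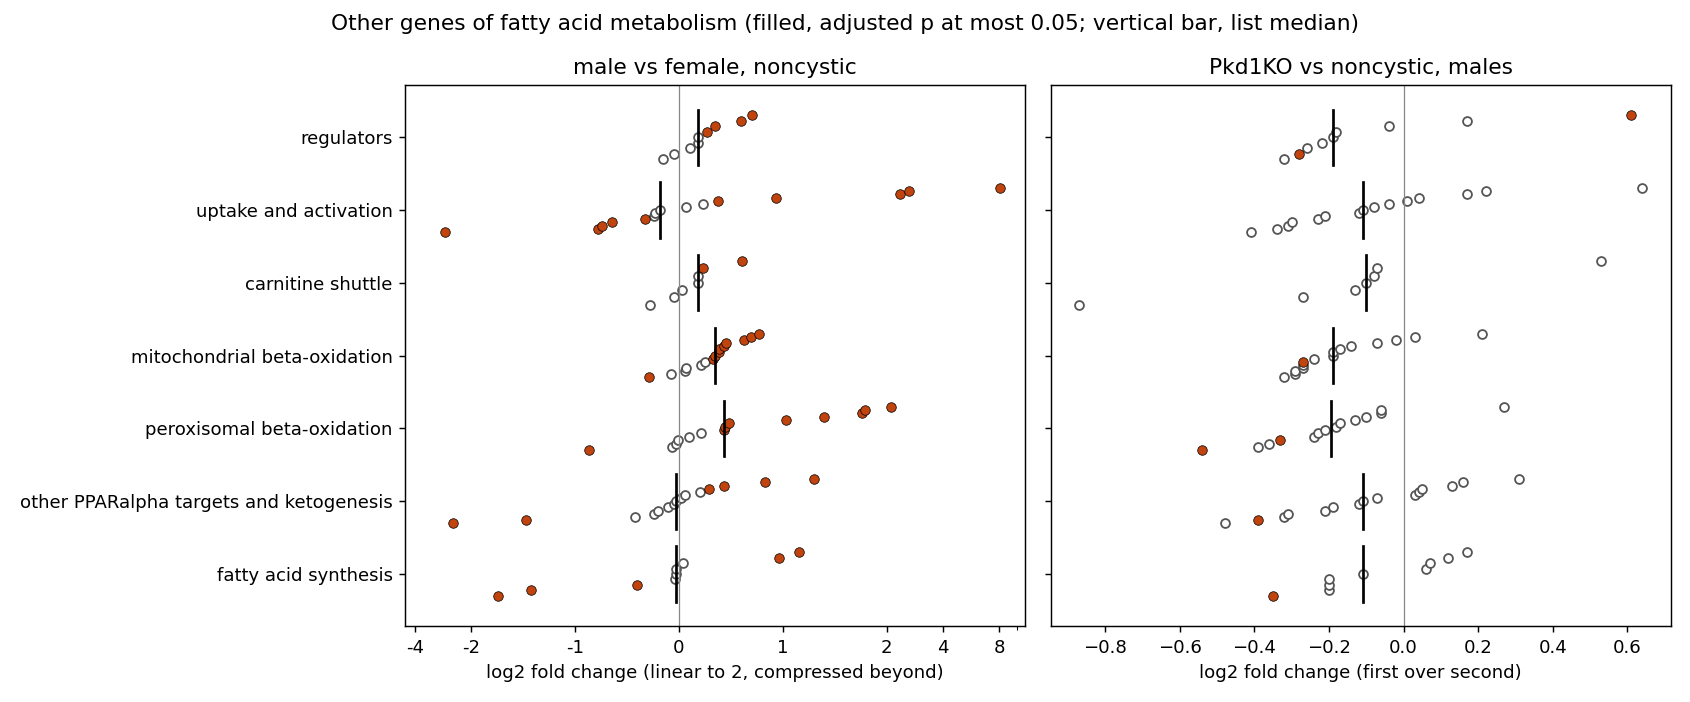
edgeR log2 fold changes of the other genes of fatty acid metabolism in 7 lists, for noncystic males against noncystic females (left, axis linear to 2 and compressed beyond) and for Pkd1KO against noncystic males (right); filled points have an adjusted p at most 0.05 and vertical bars mark list medians. The mitochondrial and peroxisomal medians are 0.35 and 0.43 on the left and -0.19 and -0.20 on the right.

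In males, loss of Pkd1 went with lower ribosome-bound mRNA of the carnitine shuttle pair. Cpt1a and Cpt2 fell in Pkd1KO against noncystic males, 2 of the 8 genes, where 6.3% of all genes passed the test, 4.05% higher and 2.25% lower. All but Acadm had a negative log2 fold change, and the median of the 8 was -0.22 against -0.01 for all genes. Cpt1a was at 600 to 839 CPM in the 8 noncystic males (median 735) and at 413 to 656 CPM in the 7 Pkd1KO males (median 548). The ranges overlapped only between 600 and 656 CPM, and 7 of 7 Pkd1KO males lay below the noncystic median. Its level was 0.764-fold of noncystic (log2 fold change -0.39, SE 0.0997, edgeR adjusted p = 0.0281). Cpt2 was at 130 to 236 CPM in noncystic (median 197) and 112 to 152 CPM in Pkd1KO males (median 139), 0.726-fold (log2 fold change -0.46, SE 0.114, edgeR adjusted p = 0.0226), again with 7 of 7 Pkd1KO males below the noncystic median. Without the male libraries that stand apart Cpt1a kept its call (-0.35, adjusted p = 0.0217) and Cpt2 missed the threshold (-0.41, adjusted p = 0.0632), both with edgeR. Left out 1 at a time, 6 of the 15 mice ended the call of Cpt1a (adjusted p 0.0513 to 0.0598).

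Ppara and Acadvl were next in order. Ppara was at 94.2 to 137 CPM in noncystic (median 123) and at 69.4 to 131 CPM in Pkd1KO males (median 92.4), with 6 of 7 below the noncystic median and 1, replicate 1, at 131 CPM among the higher noncystic values. Its log2 fold change of -0.38 (SE 0.114) had an edgeR adjusted p of 0.0551, and without Pkd1KO male replicate 1 it was -0.48 with an adjusted p of 0.00626. Acadvl gave -0.22 (SE 0.0677, edgeR adjusted p = 0.0701) and, without the male libraries that stand apart, -0.21 with an adjusted p of 0.0439. Ehhadh was at 853 to 1247 CPM in Pkd1KO males against a noncystic median of 1347 CPM, so that 7 of 7 lay below that median, with a log2 fold change of -0.22 (95% interval -0.48 to 0.04, edgeR adjusted p = 0.361). For Acadl and Hadha the log2 fold changes were -0.03 (95% interval -0.21 to 0.14) and -0.07 (-0.22 to 0.09), and -0.06 and -0.04 without the male libraries that stand apart. Acadm alone had a positive value, 0.29 (95% interval -0.03 to 0.62, edgeR adjusted p = 0.322), at 1541 to 3144 CPM in Pkd1KO against 1134 to 2386 CPM in noncystic males.

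Most genes of the other lists had lower values in this comparison. Over the 75 tested genes of 6 lists, synthesis left out, 58 had a negative log2 fold change and the median was -0.17. Of these 75 genes 5 fell and 1 rose at the adjusted threshold, where 2.25% of all genes fell and 4.05% rose. Among the genes that fell were Ppargc1a, the PPARα coactivator (-0.28, SE 0.0778, edgeR adjusted p = 0.0426), Hadhb of the trifunctional protein (-0.27, SE 0.0608, edgeR adjusted p = 0.0127), the peroxisomal reductase gene Decr2 (-0.54, SE 0.0922, edgeR adjusted p = 0.00209) and the thioesterase gene Acot3. The gene that rose was Pparg, the receptor of the adipocyte programme, at 7.47 against 4.90 CPM (log2 fold change 0.61, SE 0.168, edgeR adjusted p = 0.0416). In the synthesis list Acly, which makes cytosolic acetyl-CoA, fell (-0.35, SE 0.0731, edgeR adjusted p = 0.00773). Without the male libraries that stand apart 5 of 15 mitochondrial genes fell in place of 1, while over all genes 301 fell in place of 360. In the same fit 0 of 9 regulators passed, so Ppargc1a and Pparg were no longer called. Acot3 was not called either, as 0 of 15 other PPARα targets and ketogenesis genes passed. Beside these values, the summed proximal tubule markers were at 8771 to 13587 CPM in noncystic (median 12401) and 5847 to 12275 CPM in Pkd1KO males (median 9574), with 1 of 10 (Cubn) called lower and a list median of -0.28, and of 4 injury markers 2 (Lcn2 and Krt20) were higher, with sums of 13.7 to 68.5 CPM in noncystic and 23.3 to 159 CPM in Pkd1KO males. Their part in the lower fatty acid oxidation values was not tested.

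Removing cilia together with Pkd1 left Cpt1a lower than in noncystic males. Cpt1a was at 542 to 663 CPM in the 9 Pkd1KO+ciliaKO males (median 610), with 9 of 9 below the noncystic median, and its log2 fold change was -0.26 (SE 0.0770, edgeR adjusted p = 0.0399). It was the only call among the 8 genes, where 8.89% of all genes passed, 5.63% higher and 3.26% lower. With limma on log2(TPM + 1), which changes both the test and the scale, it was not called (-0.16, adjusted p = 0.279), and without the male libraries that stand apart edgeR gave -0.34 with an adjusted p of 0.00787. Left out 1 at a time, 10 of the 17 mice ended the call (adjusted p 0.051 to 0.0855). Cpt2 was at 121 to 232 CPM (median 163), between the other male groups, with a log2 fold change of -0.15 against noncystic (95% interval -0.39 to 0.10, adjusted p = 0.501), and -0.26 (adjusted p = 0.166) without the libraries that stand apart. Ppara gave -0.20 (95% interval -0.40 to -0.01, edgeR adjusted p = 0.214).

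Ehhadh and Acadm were spread most widely in this group. Ehhadh was at 356 to 1336 CPM (median 992) and Acadm at 668 to 1785 CPM (median 1428); replicates 6 and 8, which lay toward the females, held the lowest 2 values of each gene and the highest 2 of Hadha, which ranged from 309 to 582 CPM (median 322). Against noncystic males the log2 fold changes were -0.46 for Ehhadh (95% interval -0.90 to -0.03, edgeR adjusted p = 0.206), -0.37 for Acadm (-0.74 to 0.01, adjusted p = 0.247) and 0.12 for Hadha (-0.12 to 0.37, adjusted p = 0.576). Without these replicates and noncystic male replicate 3 edgeR gave -0.35 for Ehhadh (adjusted p = 0.0843) and -0.26 for Acadm (adjusted p = 0.230). The value of Hadha changed sign, to -0.04 (adjusted p = 0.777).

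Over all genes 3.26% fell and 5.63% rose in Pkd1KO+ciliaKO against noncystic males. The pathway lists gave 7 genes of 75 that fell and none that rose, with a median of -0.13 against 0.01 for all genes. Among these, of the peroxisomal genes Decr2 (-0.47, SE 0.0758, edgeR adjusted p = 0.000905), Acaa1b and Hsd17b4 fell, of the mitochondrial genes Acad12 (-0.40, SE 0.0862, edgeR adjusted p = 0.00697) and Acad10, and of the regulators Lpin1. Without the male libraries that stand apart 7 of 14 peroxisomal genes fell in place of 3 and 6 of 15 mitochondrial genes in place of 2. In the same fit 1107 of 15991 genes fell in place of 521, so that lower calls were more frequent over all genes as well. That fit also gave 1 higher and 1 lower of 7 carnitine shuttle genes. Among the 15 other PPARα targets and ketogenesis genes 1 was higher and 2 were lower. Higher calls over all genes were 1133 in place of 901. Of 10 proximal tubule markers 4 (Lrp2, Cubn, Slc5a2 and Slc5a12) were called lower, the list median was -0.33, and the summed level was 7208 to 11097 CPM (median 8829); their part in these values was not tested.

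Pkd1KO and Pkd1KO+ciliaKO males differed in none of the 8 genes by edgeR at the adjusted threshold, where 3.77% of all genes passed. At an unadjusted p under 0.05 there were 2 (Acadm and Cpt2), against 19.7% of all genes. DESeq2 and limma voom with sample weights each called 1 of the 8, Acadm. Acadm had a log2 fold change of 0.66 (SE 0.197, edgeR adjusted p = 0.0698), with 7 of 7 Pkd1KO males above the Pkd1KO+ciliaKO median of 1428 CPM, and 0.55 (adjusted p = 0.0563) without the libraries that stand apart. Cpt2 was lower in Pkd1KO, at -0.32 (95% interval -0.54 to -0.09, edgeR adjusted p = 0.129), and -0.16 without the libraries that stand apart (adjusted p = 0.387). Of 75 listed genes Acaa2 was lower and Acsl5 higher. Acaa2 fell in Pkd1KO relative to Pkd1KO+ciliaKO (-0.51, SE 0.108, edgeR adjusted p = 0.0132), and Acsl5, a long-chain acyl-CoA synthetase gene, rose (0.37, SE 0.0827, adjusted p = 0.0181 with edgeR). Mlxipl, the carbohydrate-response factor ChREBP, rose as well (0.40, SE 0.0877, edgeR adjusted p = 0.0157). Without the libraries that stand apart 0 of 15 uptake and activation genes passed, so Acsl5 was no longer called. In that fit 2 of 15 mitochondrial genes were lower in place of 1. Over all genes it gave 354 higher and 274 lower, in place of 318 and 285.

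In females Acadm carried the differences. Its CPM in the 8 Pkd1KO females was 1353, 1415, 1977, 2035, 2150, 2614, 2861 and 3367, in the 7 noncystic females 1169, 1595, 1631, 1750, 1777, 1794 and 1973, and in the 6 Pkd1KO+ciliaKO females 954, 989, 1089, 1107, 1304 and 1372. The ranges of Pkd1KO and Pkd1KO+ciliaKO females overlapped between 1353 and 1372 CPM, and 8 of 8 Pkd1KO females lay above the Pkd1KO+ciliaKO median. Acadm was 1.95-fold higher in Pkd1KO than in Pkd1KO+ciliaKO females (log2 fold change 0.97, SE 0.187, edgeR adjusted p = 0.00469), the only call among the 8 genes, where 11.7% of all genes passed, 7.05% higher and 4.65% lower. It was called in all 11 alternatives and in 14 of 14 fits that left out a mouse, and without the 2 libraries that go against their labels its log2 fold change was 1.03 (adjusted p = 0.00566). The highest value of the Pkd1KO+ciliaKO group, 1372 CPM, was that of the library labelled replicate 6.

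Against noncystic females Acadm was 0.680-fold in Pkd1KO+ciliaKO (log2 fold change -0.56, SE 0.118, edgeR adjusted p = 0.0293), with 6 of 6 below the noncystic median and with the noncystic mouse at 1169 CPM within the Pkd1KO+ciliaKO range. Again this was the only call among the 8 genes, where 2.54% of all genes passed, 0.67% higher and 1.87% lower. Without the 2 libraries the log2 fold change was -0.60 (edgeR adjusted p = 0.0167). Left out 1 at a time, 7 of the 13 mice ended this call (adjusted p 0.0553 to 0.0857). Pkd1KO against noncystic females gave 0.41 for Acadm (95% interval 0.07 to 0.76, edgeR adjusted p = 0.229). In that comparison none of the 8 genes passed by edgeR or in any of 11 alternatives, and 3.34% of all genes passed. At an unadjusted p under 0.05 there were 2 (Acadm and Hadha), against 16.4% of all genes. The 3 comparisons of each sex share their groups and are not independent of each other.

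For the carnitine shuttle pair the female values fell short of the threshold in the main test. Cpt2 was at 93.6 to 118 CPM in Pkd1KO (median 103) and 103 to 161 CPM in Pkd1KO+ciliaKO females (median 121), and 8 of 8 Pkd1KO females lay below the Pkd1KO+ciliaKO median; the log2 fold change was -0.26 (SE 0.0828, edgeR adjusted p = 0.0503). Cpt1a was at 398 to 605 CPM in Pkd1KO and 488 to 886 CPM in Pkd1KO+ciliaKO females, with a log2 fold change of -0.30 (SE 0.125, edgeR adjusted p = 0.125). On log2(TPM + 1) with limma both passed, Cpt1a at -0.38 (adjusted p = 0.0389) and Cpt2 at -0.35 (adjusted p = 0.00823). In that fit 1583 of all genes were lower and 584 higher, in place of 743 and 1126, so lower calls were more frequent over all genes as well. Cpt2 passed in 5 of the 11 alternatives, among them DESeq2, limma voom with sample weights and the filter of at least 10 counts. Cpt1a passed in 2, both on TPM. Against noncystic females the Pkd1KO values were -0.13 for Cpt1a (95% interval -0.34 to 0.08) and -0.11 for Cpt2 (-0.29 to 0.07). Ppara had close medians in females, 102, 108 and 109 CPM in noncystic, Pkd1KO and Pkd1KO+ciliaKO mice, while single mice ranged from 90 to 158, 87.0 to 118 and 85.5 to 130 CPM. Its log2 fold changes lay between -0.07 and -0.03 in the 3 comparisons, and between -0.11 and -0.06 without the 2 libraries that go against their labels.

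**Figure D4:**
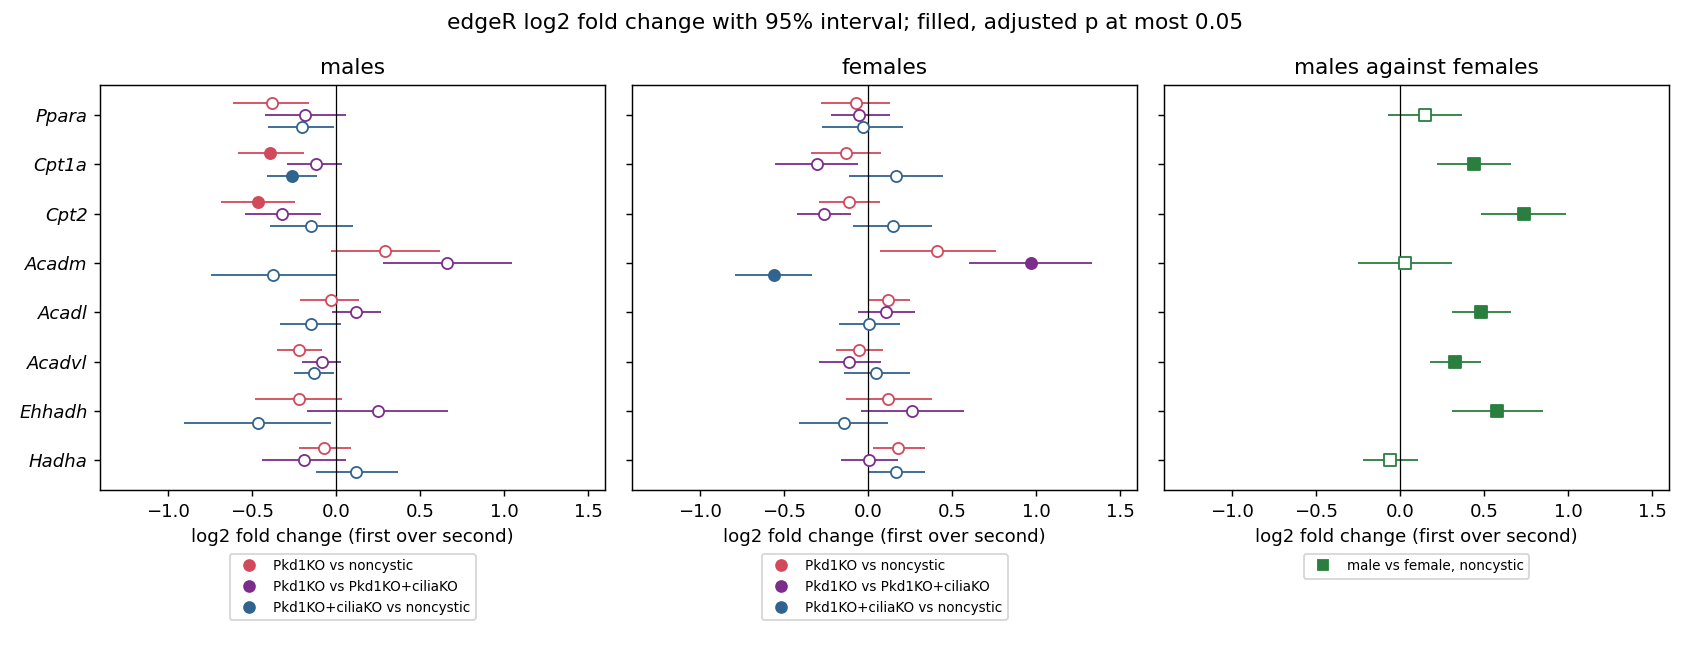
edgeR log2 fold change (point) and 95% interval (line) of each gene in the 3 genotype comparisons of males and of females and in noncystic males against noncystic females; filled symbols have an adjusted p at most 0.05. In males Cpt1a and Cpt2 are filled at -0.39 and -0.46 in Pkd1KO against noncystic, in females only Acadm is filled, at 0.97 and -0.56, and 5 genes are filled in the sex panel.

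Among the listed genes of females, Bdh1, the ketone body dehydrogenase gene, moved as Acadm did: its mean was 304 CPM in noncystic, 372 CPM in Pkd1KO and 180 CPM in Pkd1KO+ciliaKO females (Pkd1KO against Pkd1KO+ciliaKO 1.04, SE 0.166, edgeR adjusted p = 0.00155; Pkd1KO+ciliaKO against noncystic -0.75, SE 0.140, edgeR adjusted p = 0.0209). Over all genes 7.05% were higher and 4.65% lower in Pkd1KO than in Pkd1KO+ciliaKO females. Near these shares, 5 of the 75 listed genes were higher (Cd36, Acad10, Etfb, Pecr and Bdh1) and 3 lower (Prkaa2, Hadhb and Acaa2). The list median was -0.04 against -0.01 for all genes. Etfb, which takes electrons from the acyl-CoA dehydrogenases, was among the higher (0.33, SE 0.0662, edgeR adjusted p = 0.00532), while Prkaa2, a catalytic subunit of AMPK, was lower (-0.24, SE 0.0534, edgeR adjusted p = 0.00892). Pkd1KO+ciliaKO against noncystic females gave 4 lower, Bdh1, the fatty acid transporter gene Cd36, Acad10 (-0.30, SE 0.0676, edgeR adjusted p = 0.0360) and the very long chain synthetase Slc27a2 (-0.49, SE 0.104, edgeR adjusted p = 0.0295), and none higher. Over all genes 1.87% were lower and 0.67% higher in that comparison. Pkd1KO against noncystic females gave only Acads, the short-chain dehydrogenase, which fell (-0.26, SE 0.0532, edgeR adjusted p = 0.0115). There 1.32% of all genes fell and 2.02% rose. Without the 2 libraries named above, Pkd1KO+ciliaKO against noncystic females gave 1 higher and 2 lower of the 15 mitochondrial genes, in place of 0 and 1, while over all genes 345 were higher and 581 lower in place of 107 and 298. Of the 10 proximal tubule markers 3 (Slc5a2, Hnf4a and Slc3a1) were higher in Pkd1KO than in Pkd1KO+ciliaKO females, at summed levels of 8232 to 11727 and 7282 to 9696 CPM, and 3 (Aqp1, Hnf4a and Slc3a1) were lower in Pkd1KO+ciliaKO than in noncystic females. Of 12 tested transcripts of the mitochondrial genome 7 were lower in Pkd1KO than in Pkd1KO+ciliaKO females, with a list median of -1.26. Their summed level was 280 to 1582 CPM in Pkd1KO and 757 to 2566 CPM in Pkd1KO+ciliaKO females, and the part of either list in the Acadm difference was not tested.

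The difference between the sexes in each genotype effect was tested directly as an interaction over all 45 mice. None of the 8 genes passed by edgeR in any of the 3 interactions, where 0.0126%, 0.221% and 0.0316% of all genes passed for Pkd1KO against noncystic, Pkd1KO against Pkd1KO+ciliaKO and Pkd1KO+ciliaKO against noncystic. At an unadjusted p under 0.05 the counts were 1, 0 and 1 of the 8, against 8.08%, 7.94% and 5.49% of all genes, and DESeq2 called none. For the shuttle pair the male minus female difference in Pkd1KO against noncystic was -0.25 for Cpt1a (95% interval -0.55 to 0.05, edgeR adjusted p = 0.735) and -0.35 for Cpt2 (-0.67 to -0.03, adjusted p = 0.588). For Acadm in Pkd1KO against Pkd1KO+ciliaKO it was -0.31 (95% interval -0.83 to 0.22, edgeR adjusted p = 0.817), and -0.47 (adjusted p = 0.567) without the 6 libraries. For Cpt1a in Pkd1KO+ciliaKO against noncystic it was -0.43 (95% interval -0.74 to -0.13, edgeR adjusted p = 0.628), and limma voom with sample weights gave -0.52 with an adjusted p of 0.036. A genotype call in 1 sex and not in the other was therefore not shown to differ between the sexes by edgeR.

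Within groups the 8 genes did not vary as a block. Over the 45 mice, with each gene taken as its deviation from the mean of the own group in log2(CPM + 0.1), the 28 pairs had Pearson correlations from -0.523 to 0.707 with a median of 0.259; 9 were above 0.5 and 7 below 0. All pairs share libraries and their scaling. Acadl went with Acadvl (r = 0.707, Spearman rho = 0.630, permutation p = 3e-05 and 4e-05, adjusted 0.000168 and 0.00028; r = 0.571 without the 2 mice farthest from the median of Acadl) and with Ehhadh (r = 0.699, rho = 0.698, permutation p = 1e-05 for both, the smallest that 100000 permutations within groups can give, adjusted 0.00014 and 0.00028; r = 0.661 without the 2 mice). Cpt1a and Cpt2 had an r of 0.545 (rho = 0.529, permutation p = 0.00017 and 0.00054, adjusted 0.00068 and 0.00168) and 0.470 without the 2 farthest mice. Ppara went with Cpt1a (r = 0.522, rho = 0.537, permutation p = 0.00038 and 0.00029, adjusted 0.00133 and 0.00112), the highest of its 7 correlations, and 0.430 without the 2 farthest mice. Acadm and Hadha ran opposite (r = -0.523, rho = -0.438, permutation p = 0.00166 and 0.00543, adjusted 0.00387 and 0.0138), with -0.416 without the 2 farthest mice, and r was -0.334 in the 39 mice left without the 6 libraries named above. Ehhadh and Hadha had an r of -0.370 (rho = -0.148, permutation p = 0.0761 and 0.391, adjusted 0.133 and 0.476), which was 0.0688 without those 6 libraries. Leaving them out also moved r from 0.0438 to 0.502 for Acadl with Hadha, from 0.0712 to 0.432 for Cpt2 with Ehhadh, from 0.334 to 0.630 for Cpt2 with Acadl, and from 0.490 to 0.746 for Acadvl with Hadha. The last was then the highest of the 28 pairs, ahead of Acadl with Acadvl at 0.721. For the other pairs named, r was 0.635 for Acadl with Ehhadh, 0.562 for Cpt1a with Cpt2 and 0.454 for Ppara with Cpt1a in those 39 mice. With all libraries kept, some pairs had opposite signs in the sexes. For Acadl with Hadha r was -0.317 in males and 0.713 in females, and for Ehhadh with Hadha -0.64 and 0.356. For Cpt1a with Acadm it was 0.162 and -0.463. These differences between the sexes were not tested. Adjusted values are Benjamini-Hochberg over the 28 pairs.

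**Figure D5:**
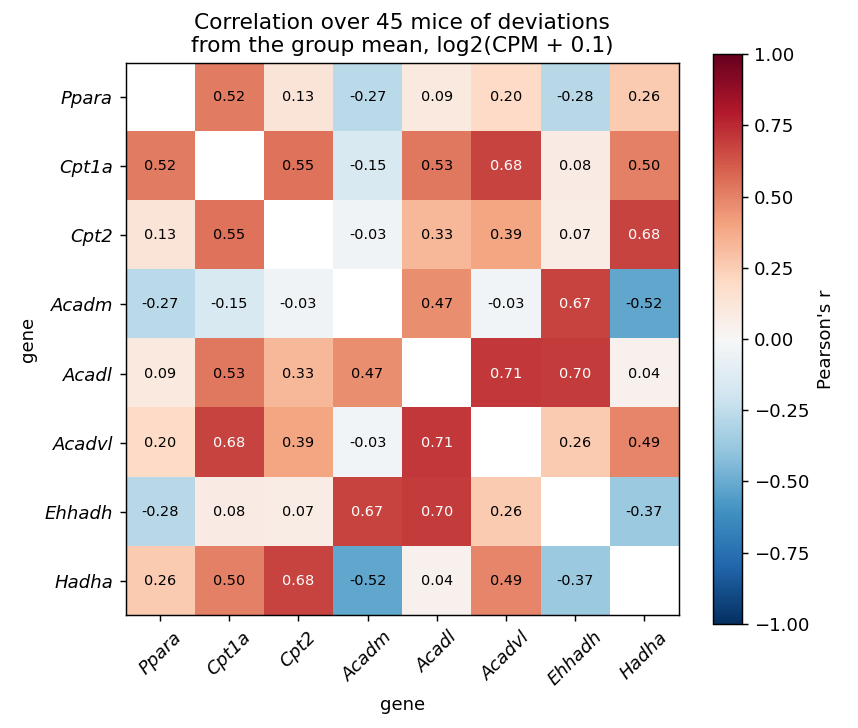
Pearson correlation of each pair of genes over the 45 mice, of deviations from the mean of the own group in log2(CPM + 0.1). Acadl with Acadvl (0.71) and Acadl with Ehhadh (0.70) are highest, and Acadm with Hadha (-0.52) is lowest, all 6 libraries named above included.

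The genes most like Ppara in these deviations, of 12811 protein-coding genes ranked, were Ppp1r15b (r = 0.741), Foxo1 (0.699), Asl (0.689), Fmo2 (0.684) and Pde8a (0.663). Among the 5 genes most like the mean of the other 7 were Sqstm1 (r = 0.805), Hsd17b4 (0.771), Slc25a20 (0.734) and Ldha (0.727). Of these, Hsd17b4 encodes a peroxisomal oxidation enzyme and Slc25a20 the carnitine-acylcarnitine carrier of the inner membrane. Foxo1 is a transcription factor of the fasting response. These rankings use all 45 mice, with the 6 libraries named above included, and were not repeated without them. They describe the libraries and carry no test.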

How the data were processed

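Ribosome-bound RNA of kidney tubules was sequenced for 45 mice in 6 groups of genotype and sex, 80874556 to 132958186 counts a library. Per the methods, fastp 0.20.0 did the trimming, STAR 2.7.9 the alignment (GRCm38.p6, GENCODE vM25) and featureCounts 2.0.0 the counting. The authors deposited raw counts and TPM in 1 table each per sex. How strand and multiply mapped reads were handled is not given in the sources used here. The deposited TPM of a mouse sum to 727842 to 946924. Groups come from the labels, and 0 columns of values stayed unmapped. Symbols were matched for 55141 of 55401 genes.

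Tests covered protein-coding genes that reached 6 counts in 20% or more of one sex's mice (15991 in males, 15968 in females, 15828 in both), by the edgeR 4.0.16 quasi-likelihood test in R 4.3.3, TMM scaling and Benjamini-Hochberg adjustment over all of them, called at an adjusted p of at most 0.05. The study's own methods name DESeq2; here DESeq2 1.42.0 and limma 3.58.1 served as alternatives. Each genotype pair within a sex, noncystic males against females, and the interaction of sex and genotype over all mice were fitted. CPM use TMM over all mice. The fits were tested on simulated data first. The members and gene lists were chosen with earlier results of these data known, and counts of a list carry no test. Besides the 8 genes, the text names the 3 listed genes with the smallest p among those called in each comparison, Hadhb, Ppargc1a, Kif3a, Pkd1, and the 5 genes most like Ppara and most like the other 7; the other listed genes are named after their values were seen, as members of a count. Some genes that this rule names or that enter these counts are not reported here. Alternatives covered other tests, filters, scalings, the replicate number as a block, and leaving out mice. No 2 libraries of a group agreed within sampling noise (149 pairs; chi-square divided by its degrees of freedom at least 39.7).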

Additional observations from a re-analysis of the deposited data

Results flagged for a closer look

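Of 48 sets of a gene and a group, 6 held a mouse whose gap to its nearest neighbour, set against the range of its group, passed Dixon's critical value, where chance gives about 1 in 20. Pkd1KO+ciliaKO female replicate 1 was such a mouse for 3 genes, Acadl at 479 CPM (next 341), Acadvl at 218 CPM (next 156) and Hadha at 512 CPM (next 394), and it also held the highest Cpt1a (886 CPM) and Cpt2 (161 CPM) of its group. Without it Acadl passed the edgeR test in Pkd1KO against Pkd1KO+ciliaKO females (log2 fold change 0.21, adjusted p = 0.0386). Ppara was at 158 CPM in noncystic female replicate 1 (next 119). Acadm was at 3144 CPM in Pkd1KO male replicate 1 (next 2217), the mouse that also had the highest Ppara of its group. Acadvl was at 141 CPM in Pkd1KO male replicate 4 (next 160), a library that lay toward the females.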

How the results depend on the processing

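No log2 fold change of a called gene turned its sign under any alternative. In Pkd1KO against noncystic males the 2 calls became 4 (Ppara and Acadvl added) with DESeq2, with limma voom and sample weights, with 3 genotypes in one fit and with limma on log2(TPM + 0.1). Leaving out 1 mouse gave 1 to 3 calls: Ppara was added without noncystic male replicate 4 (-0.43, adjusted p = 0.0339) or Pkd1KO male replicate 1, Acadvl without noncystic male replicate 3 (-0.24, adjusted p = 0.0240), and Cpt1a was lost (adjusted p 0.0513 to 0.0598) without noncystic male replicates 1, 2, 6 or 7 or Pkd1KO male replicates 3 or 5. In Pkd1KO against Pkd1KO+ciliaKO males 0 became 1 (Acadm) with DESeq2, voom and the fit of 3 genotypes. In Pkd1KO+ciliaKO against noncystic males 1 became 2 with voom and 0 with limma on log2(TPM + 1) and log2(TPM + 0.1), and 0 to 1 on leaving out a mouse, 10 mice each ending the call (noncystic replicates 1, 2, 5, 6 and 7, Pkd1KO+ciliaKO replicates 1, 2, 3, 5 and 7; adjusted p 0.051 to 0.0855). In Pkd1KO against Pkd1KO+ciliaKO females 1 became 2 (Cpt2 added) with DESeq2, voom and at least 10 counts, and 3 (Cpt1a and Cpt2 added) with limma on both TPM scales. Leaving out a mouse there gave 1 to 2 calls, Cpt2 being added without Pkd1KO replicate 4 or Pkd1KO+ciliaKO replicate 3 and Acadl without Pkd1KO+ciliaKO replicate 1. In Pkd1KO+ciliaKO against noncystic females 1 became 0 with 3 genotypes in one fit and 2 on both TPM scales (Hadha added), and 0 to 1 on leaving out a mouse, Acadm being lost (adjusted p 0.0553 to 0.0857) without noncystic replicates 2, 3, 6 or 7 or Pkd1KO+ciliaKO replicates 2, 3 or 4. The interaction of sex with Pkd1KO+ciliaKO against noncystic gave 1 (Cpt1a) with voom. The cause of these changes was not tested. Same-numbered mice showed no steady tendency to deviate together. Over the 7 comparisons the correlations of pairs had medians of -0.115 to 0.132, lowest values of -0.369 to -0.135 and highest values of 0.0604 to 0.467. In each comparison 0 to 2 pairs correlated best with their own number, so the numbers were not taken to pair mice. With the replicate block 0 of the 8 genes passed in Pkd1KO+ciliaKO against noncystic mice of either sex (Cpt1a, adjusted p = 0.138; Acadm, adjusted p = 0.0543), fewer mice entering that fit, and the other counts stayed within 1.5 times. Over all genes the share of calls that were higher differed with limma on log2(TPM + 1), where test and scale change together: it was 41.9% in place of 64.3% in Pkd1KO against noncystic males, 28.0% in place of 52.7% in Pkd1KO against Pkd1KO+ciliaKO males, 26.9% in place of 60.2% in the same comparison of females and 87.5% in place of 26.4% in Pkd1KO+ciliaKO against noncystic females. Counts of calls over all genes moved with the test: 1631 with DESeq2 and 262 higher and 363 lower on log2(TPM + 1) in place of 1008 in Pkd1KO against noncystic males, 178 to 1389 around 603 in Pkd1KO against Pkd1KO+ciliaKO males, 765 to 2803 around 1422 in Pkd1KO+ciliaKO against noncystic males, 298 to 964 around 533 in Pkd1KO against noncystic females and 74 to 1357 around 405 in Pkd1KO+ciliaKO against noncystic females (lowest with the replicate block, highest with voom or, for 964, DESeq2), 441 higher and 184 lower with the replicate block in place of 1869 in Pkd1KO against Pkd1KO+ciliaKO females, and 0 to 18 around 2, 22 to 133 around 35 and 3 to 222 around 5 in the interactions. Leaving out 1 mouse moved the count of Pkd1KO+ciliaKO against noncystic females from 405 to between 8 (without Pkd1KO+ciliaKO female replicate 2) and 746, and that of males from 1422 to 2359 without noncystic male replicate 3. Libraries held at least 80874556 counts, and the effect of depth on the 8 genes was not tested.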
